A study of Homo sapiens with 6 samples.

Results

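Transcripts of 10 genes tied to the transcription factor NF-kB were followed in U2OS cells treated with an inhibitor of PARG. The genes are the subunit genes NFKB1, NFKB2 and RELB, the feedback genes NFKBIA, TNFAIP3 and IER3, and the cytokine genes CXCL8, IL6, IL11 and LIF. They were taken by symbol from the 60708 gene identifiers of the count files, and all 10 were found. U2OS is an established human osteosarcoma line, labelled wild type in the design text. Control cells were kept for 4 days in the solvent DMSO, and treated cells, called PARGi here, for 4 days in 25 µM PDD00017273. PDD00017273 blocks PARG (poly(ADP-ribose) glycohydrolase), which takes apart chains of poly(ADP-ribose). Each group had 3 libraries, described as biological triplicates. No stimulus of NF-kB such as TNF is named in the labels, both groups were grown in medium with serum, and 1 time point and 1 dose were sampled.

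NF-kB proteins are dimers that IkB proteins hold in the cytoplasm. When a receptor or DNA damage activates the IkB kinase complex (IKK), IkB alpha is degraded and the dimers enter the nucleus. Their targets include genes of their own inhibitors, so that a pulse of activity normally ends by negative feedback, and genes of secreted cytokines. DNA damage reaches IKK through a nuclear route that involves ATM and the IKK subunit NEMO, in which PARP1 and its poly(ADP-ribose) also take part, and cytokine secretion is a known late response of damaged cells.

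The starts of 7 of the 10 genes had an entry in the RefSeq promoter table (GRCh38.p14), which holds 250 bases before and 50 bases after a transcription start. RELB, IER3 and LIF had none. Below are the windows of the feedback genes NFKBIA and TNFAIP3, whose transcripts were lower in PARGi, and of IL11, whose transcript rose most among the 9 of the 10 that could be tested. They are written 5′ to 3′ on the strand of the gene. Capitals mark matches to the kB consensus motif, to which NF-kB dimers bind, in NFKBIA and TNFAIP3, and to the AP-1 motif TGANTCA in IL11, each searched on both strands.

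NFKBIA promoter, chr14:35404700-35404999, minus strand: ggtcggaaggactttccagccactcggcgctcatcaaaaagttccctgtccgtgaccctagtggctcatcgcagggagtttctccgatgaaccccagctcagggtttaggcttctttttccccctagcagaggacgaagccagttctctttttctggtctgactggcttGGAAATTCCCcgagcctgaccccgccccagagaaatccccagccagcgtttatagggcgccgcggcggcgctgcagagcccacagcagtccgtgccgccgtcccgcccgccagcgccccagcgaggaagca
TNFAIP3 promoter, chr6:137867009-137867308, plus strand: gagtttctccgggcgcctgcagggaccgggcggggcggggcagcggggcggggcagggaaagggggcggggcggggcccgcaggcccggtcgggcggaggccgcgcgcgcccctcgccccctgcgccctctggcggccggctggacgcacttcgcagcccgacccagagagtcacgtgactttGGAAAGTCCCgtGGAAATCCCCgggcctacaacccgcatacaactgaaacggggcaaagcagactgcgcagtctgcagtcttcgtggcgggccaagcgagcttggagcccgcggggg
IL11 promoter, chr19:55370414-55370713, minus strand: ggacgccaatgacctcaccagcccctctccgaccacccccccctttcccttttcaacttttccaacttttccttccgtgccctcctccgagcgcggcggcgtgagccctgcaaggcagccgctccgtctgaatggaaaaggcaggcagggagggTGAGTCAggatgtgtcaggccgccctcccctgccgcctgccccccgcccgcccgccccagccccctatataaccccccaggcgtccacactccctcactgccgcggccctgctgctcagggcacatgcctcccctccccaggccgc

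The NFKBIA window held 1 match to the kB consensus, GGAAATTCCC, whose first base lay 81 bases before the start. The TNFAIP3 window held a neighbouring pair, GGAAAGTCCC at 67 bases and GGAAATCCCC at 55 bases before the start. The IL11 window held no match to the kB consensus and 1 to AP-1, TGAGTCA, at 96 bases before the start. Elsewhere, NFKB1 had GGGAATTTCC at 49 bases before the start in 1 of its 2 windows, and IL6 had GGGATTTTCC at 73 bases. In the 3 windows of NFKB2 there were 0, 3 and 2 matches, and of the 3 in the middle window the first 2 overlap. CXCL8 had no match to these letters but had an AP-1 match, TGACTCA, at 137 bases and the TATA-box letters TATAAA at 31 bases before the start. Of all 35116 promoter windows, 11.3% held the kB consensus, 7.71% the AP-1 motif and 7.33% TATAAA (sense strand only). Counted by gene, in any of its windows, the shares were 13.3%, 9.37% and 8.99% of 27305 genes. The CRE motif TGACGTCA, present in 1.85% of all windows, was not found in the 10 windows of these genes. Such matches describe the sequence and do not show that a factor was bound there. The search took exact matches only, so a window without a match can hold a stretch close to the consensus. The CXCL8 window holds TGGAATTTCC, which differs from the kB consensus only in its first letter. Near matches were not searched for in the other windows.

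The depth of the 6 libraries ran from 60286931 to 80605145 counts, and their TMM scaling factors from 0.9953 to 1.007. Levels are given as counts-per-million (CPM) after this scaling. All 5 markers of mesenchymal and osteoblast cells were present, with summed levels of 8304.9 to 8889.5 CPM in DMSO and 8420.5 to 8461.1 CPM in PARGi. That sum is mostly COL1A1, VIM and SPARC. Singly, RUNX2, a bone lineage factor, was lower (log2 fold change -0.27, edgeR adjusted p = 4.96e-08), SPARC was lower by -0.083 and ALPL higher by 0.23, and the epithelial CDH1, at 1.14 CPM or less on average, was higher by 0.67. ALPL lost its call in 8 of 13 other settings, and SPARC and CDH1 lost theirs without PARGi replicate 3 (edgeR adjusted p = 0.0528 and 0.0785). Their part in the results below was not tested. The 5 blood cell markers summed to at most 1.51 CPM in a library, the 3 endothelial ones to at most 4.07 CPM and the 3 epithelial ones to at most 5.86 CPM, with CD3E at 0 in the PARGi libraries. In bulk RNA, a change in the number of cells that express a gene and a change in RNA per cell cannot be told apart.

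Across all genes, 20409 had enough counts for edgeR's quasi-likelihood test, and 24.3% of them passed a Benjamini-Hochberg adjusted p of 0.05, 13.2% as higher and 11.0% as lower in PARGi. Of the 10 genes, 9 could be tested, and 5 of the 9 passed. IL11, LIF and IER3 were higher, and TNFAIP3 and NFKBIA were lower. The 3 subunit genes and CXCL8 did not pass, and IL6 had too few counts to be tested. The median log2 fold change of the 9 was 0.13, against -0.0070 over all tested genes. In 7 of the 9 the groups did not overlap, and the same held for 38.0% of all tested genes.

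**Figure D1:**
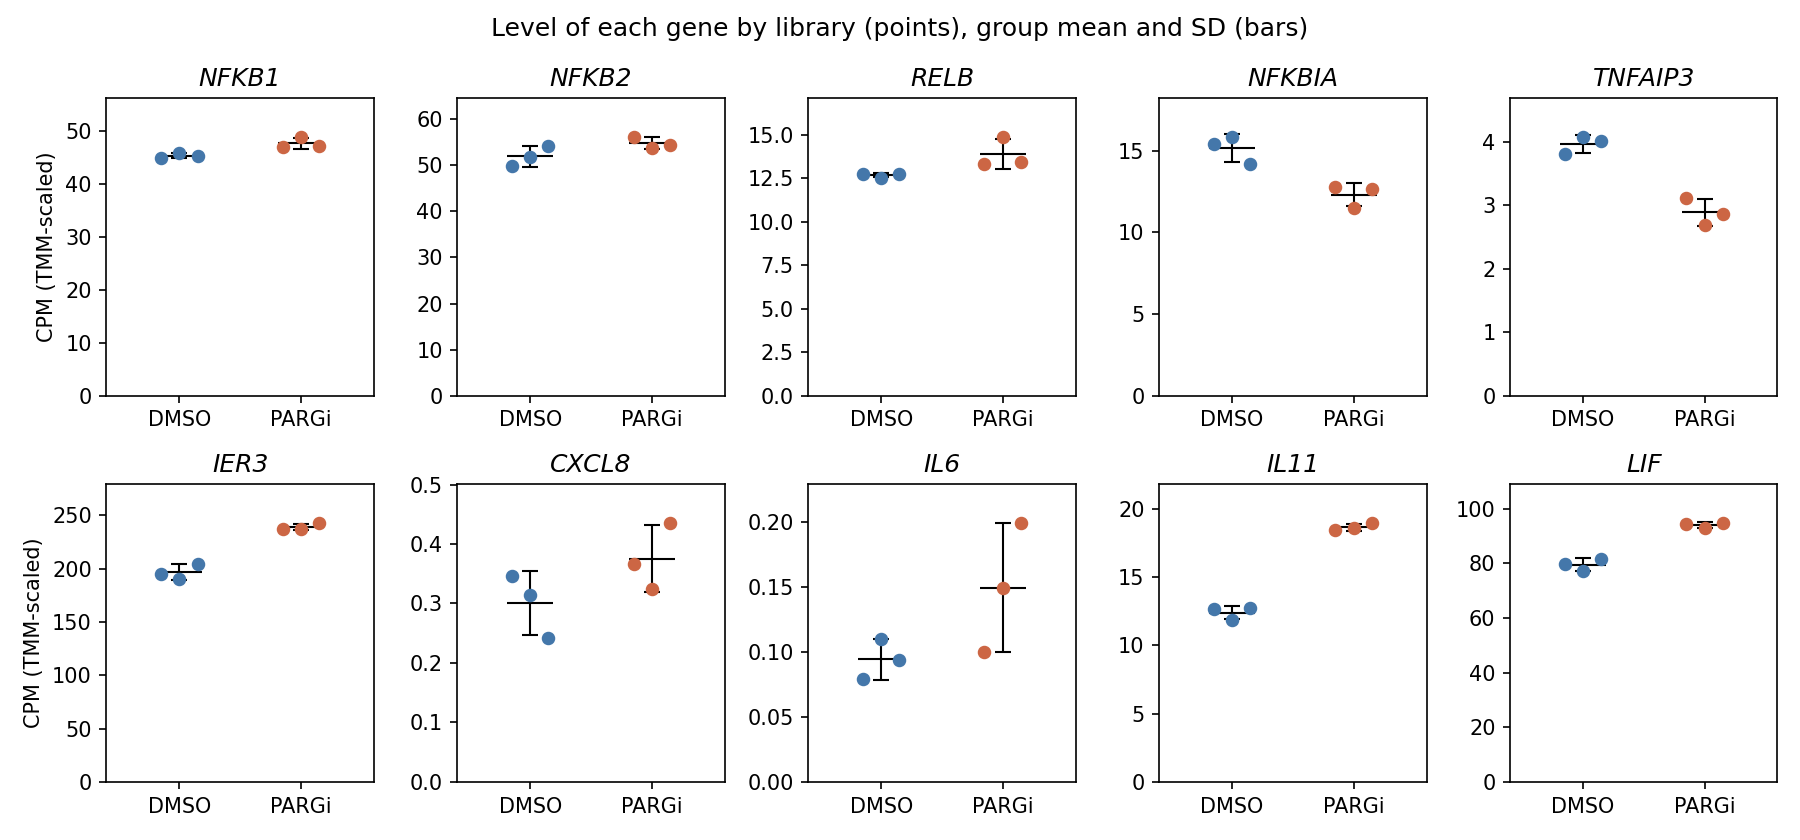
Level of each of the 10 genes (y axis, TMM-scaled CPM, from 0) in the 3 DMSO and the 3 PARGi libraries (points), with the group mean and SD (bars). For IL11, LIF and IER3 all PARGi points lie above the DMSO points, for NFKBIA and TNFAIP3 all lie below, and CXCL8 and IL6 stay under 0.5 CPM.

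The subunit genes came first in the comparison. Gene positions here and below are those of GENCODE 29 on GRCh38, and all 10 genes are protein-coding. NFKB1 (chr4:102501329-102617302, plus strand) encodes p105, the precursor of p50, the usual partner of RELA (p65) in the canonical pathway. It stood at 44.8, 45.8 and 45.3 CPM in DMSO replicates 1 to 3 and at 47.0, 48.9 and 47.2 CPM in PARGi replicates 1 to 3. Every PARGi library was above every DMSO library, but by little. The log2 fold change of NFKB1 was 0.074 (SE 0.031, n = 3 each) and did not pass after adjustment (edgeR adjusted p = 0.0897). The unadjusted 95% interval runs from 0.0095 to 0.14, or 0.662% to 10.1%.

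NFKB2 (chr10:102394110-102402529, plus strand) encodes p100, which is processed to p52 in the non-canonical pathway and otherwise acts as an inhibitor. Its levels were 49.8, 51.7 and 54.3 CPM in DMSO and 56.2, 53.8 and 54.4 CPM in PARGi. The groups overlapped, because DMSO replicate 3 was above PARGi replicate 2. The log2 fold change of NFKB2 was 0.077 (SE 0.033, edgeR adjusted p = 0.103). Without DMSO replicate 3 it was 0.11 and passed (edgeR adjusted p = 0.0160).

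RELB (chr19:45001430-45038198, plus strand) is the partner of p52 and itself a target of NF-kB. It was at 12.7, 12.5 and 12.7 CPM in DMSO and at 13.3, 14.9 and 13.4 CPM in PARGi. The groups did not overlap, and PARGi replicate 2 was the highest library. RELB had a log2 fold change of 0.13 (SE 0.053, edgeR adjusted p = 0.0679), with an unadjusted 95% interval from 1.76% to 18.4%. The remaining subunit genes did not pass either. RELA averaged 92.7 ± 2.65 CPM without and 92.4 ± 1.49 CPM with the inhibitor (SD, n = 3 each), a log2 fold change of -0.0061 with an interval from -4.34% to 3.66%. REL was at 8.62 ± 0.136 and 8.02 ± 0.454 CPM (log2 fold change -0.11, edgeR adjusted p = 0.229). None of these 5 subunit transcripts thus passed after adjustment. The groups of NFKB1, RELB and REL did not overlap, as in 38% of all tested genes, with REL lower in PARGi.

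The feedback genes split. NFKBIA (chr14:35401511-35404749, minus strand) encodes IkB alpha, the inhibitor that binds RELA dimers and is resynthesised after each pulse of activity. Its levels were 15.4, 15.9 and 14.2 CPM in DMSO and 12.8, 11.5 and 12.6 CPM in PARGi. The lowest DMSO library was above the highest PARGi library. NFKBIA was lower in PARGi by a log2 fold change of -0.30 (SE 0.055, edgeR adjusted p = 0.000249), a change of -18.8% with an interval from -24.9% to -12.1%. Of all tested genes, 18.3% had a larger absolute fold change.

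TNFAIP3 (chr6:137867188-137883312, plus strand) encodes A20, a ubiquitin-editing enzyme that shuts off signalling between the TNF receptor and IKK. It was at 3.81, 4.08 and 4.02 CPM in DMSO and at 3.12, 2.69 and 2.87 CPM in PARGi, from raw counts of 242, 260 and 299 against 187, 199 and 231. The groups did not overlap. TNFAIP3 had a log2 fold change of -0.46 (SE 0.094, edgeR adjusted p = 0.000721), a change of -27.4% with an interval from -36.6% to -16.9%. The antisense gene AL357060.1 overlaps 95 exonic bases of TNFAIP3 and had 79 counts in the DMSO and 75 in the PARGi libraries. The kit keeps the strand, but the strand setting of the counting is not given in the sources used here.

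IER3 (chr6:30743199-30744554, minus strand) encodes a short-lived protein that is induced early by NF-kB and acts in cell survival. It went the other way. Its levels were 195, 191 and 205 CPM in DMSO and 237, 238 and 243 CPM in PARGi, with a wide gap between the groups. IER3 was higher by a log2 fold change of 0.28 (SE 0.027, edgeR adjusted p = 3.67e-08), or 21.5% with an interval from 16.9% to 26.3%. The antisense gene IER3-AS1 overlaps 359 of its exonic bases and had 343 counts in the 6 libraries together. Per kilobase of exon, IER3 was the most abundant of the 10 transcripts, at 145 CPM per kilobase in DMSO.

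**Figure D2:**
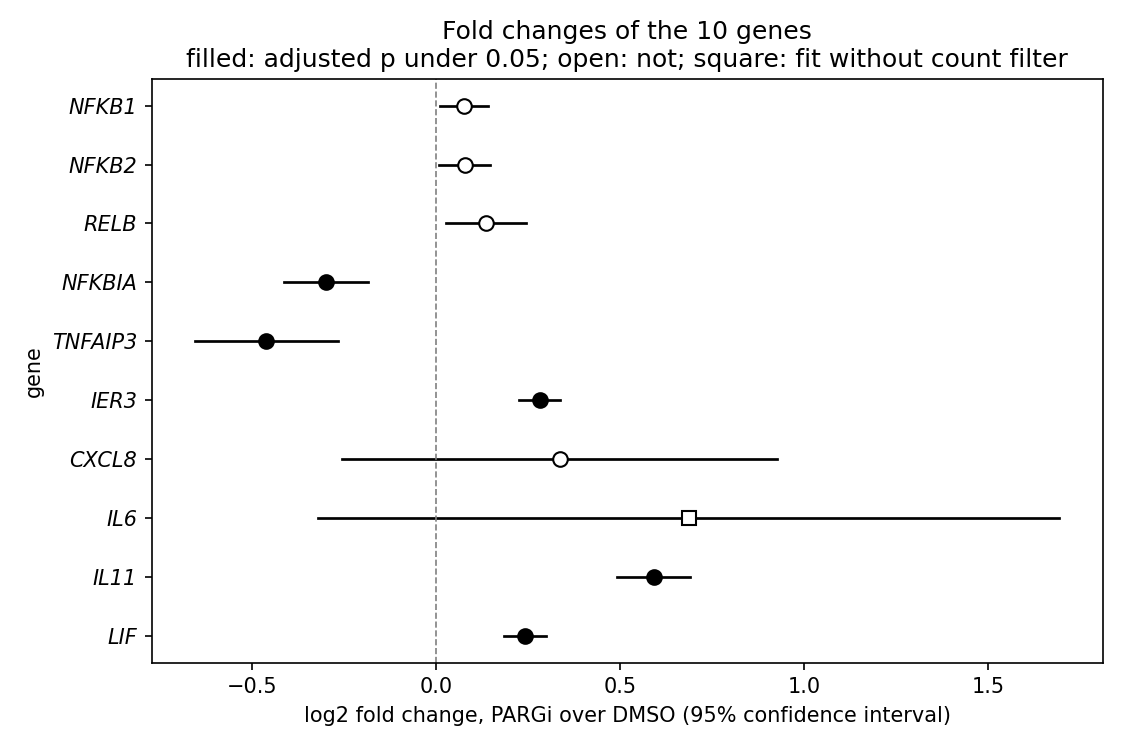
Log2 fold change of PARGi over DMSO (x axis) with its 95% confidence interval for each of the 10 genes (y axis). Filled points passed an adjusted p of 0.05, open points did not, and the square for IL6 comes from a fit without the filter on low counts. TNFAIP3 and NFKBIA lie left of 0, IL11, IER3 and LIF lie right of it, and the intervals of CXCL8 and IL6 are wide.

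Among the 3 cytokine genes that could be tested, IL11 had the largest change. IL11 (chr19:55364389-55370463, minus strand) is a secreted factor of the IL-6 family that signals through the shared receptor chain gp130 and is made by mesenchymal and bone-forming cells. Its levels were 12.6, 11.8 and 12.7 CPM in DMSO and 18.4, 18.6 and 18.9 CPM in PARGi. The PARGi libraries lay close together and far above the controls. IL11 rose by a log2 fold change of 0.59 (SE 0.047, edgeR adjusted p = 1.75e-09), or 50.5% with an interval from 40.7% to 61.1%. Of all tested genes, 5.22% had a larger absolute fold change.

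LIF (chr22:30240447-30246851, minus strand), a further gp130 cytokine known for effects on bone and on stem cells, stood at 79.9, 77.2 and 81.6 CPM in DMSO and at 94.4, 93.0 and 94.7 CPM in PARGi. The groups were again apart. LIF rose by a log2 fold change of 0.24 (SE 0.028, edgeR adjusted p = 5.73e-07), or 18.2% with an interval from 13.6% to 23.0%. Its antisense neighbours LIF-AS1 and AC004264.1 had 210 and 31 counts in the 6 libraries.

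CXCL8 (chr4:73740506-73743716, plus strand) encodes interleukin-8, a chemokine that attracts neutrophils and a common readout of NF-kB activity. It was barely detected, with 22, 20 and 18 raw counts in DMSO and 22, 24 and 35 in PARGi. These counts correspond to 0.347, 0.314 and 0.242 CPM in DMSO and 0.367, 0.325 and 0.435 CPM in PARGi. PARGi replicates 1 and 3 were the highest, but PARGi replicate 2 lay among the controls. The log2 fold change of CXCL8 was 0.34 (SE 0.29, edgeR adjusted p = 0.442). Its interval, from -16.2% to 90.0%, includes changes as large as that of IL11, so that a difference was not detectable at this depth.

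IL6 (chr7:22725884-22732002, plus strand), the founding cytokine of its family, was scarcer still, with 5, 7 and 7 counts in DMSO and 6, 11 and 16 in PARGi. Summed over a group, 19 counts in DMSO carry an exact 95% Poisson interval from 11.4 to 29.7, and 33 counts in PARGi one from 22.7 to 46.3, which covers counting error only. The groups overlapped at 0.0788 to 0.110 CPM in DMSO and 0.100 to 0.199 CPM in PARGi (two-sided exact permutation test over n = 3 libraries a group, p = 0.2, where the lowest possible is 0.1). In a fit without the filter on low counts, IL6 had a log2 fold change of 0.69 with an interval from -0.32 to 1.69 (edgeR adjusted p = 0.531). STEAP1B and AC073072.1, which overlap IL6 on the opposite strand, had 31 and 15 counts in the 6 libraries.

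Levels of different transcripts were set side by side per kilobase of exon. In DMSO the order was IER3 (145 CPM per kilobase), LIF (20.0), NFKB2 (11.6), NFKB1 (7.24), NFKBIA (6.39), IL11 (4.64), RELB (4.17), TNFAIP3 (0.786), CXCL8 (0.132) and IL6 (0.0456). No neighbours in this order overlapped between libraries. In PARGi, IL11 (6.98 ± 0.0998 CPM per kilobase, SD, n = 3) stood above NFKBIA (5.19 ± 0.296), which in turn overlapped with RELB (4.58 ± 0.284). The other positions were the same. The gp130 cytokines LIF and IL11 were thus far more abundant than IL6 and CXCL8 in both groups.

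The wider pathway was described with 9 lists that hold 118 genes besides the 10, some of them in more than 1 list. Of the 118, each counted once, 99 were tested. Of these 99, 28 passed as higher and 4 as lower, which is 32.3% against 24.3% of all tested genes. Of these 32 calls, 19 held in all 13 other settings. The median log2 fold change of the 99 was 0.057. Under upper-quartile scaling, 40.5% of the calls over all genes were higher, against 54.5% with TMM, while the 10 genes kept 3 higher and 2 lower calls.

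**Figure D3:**
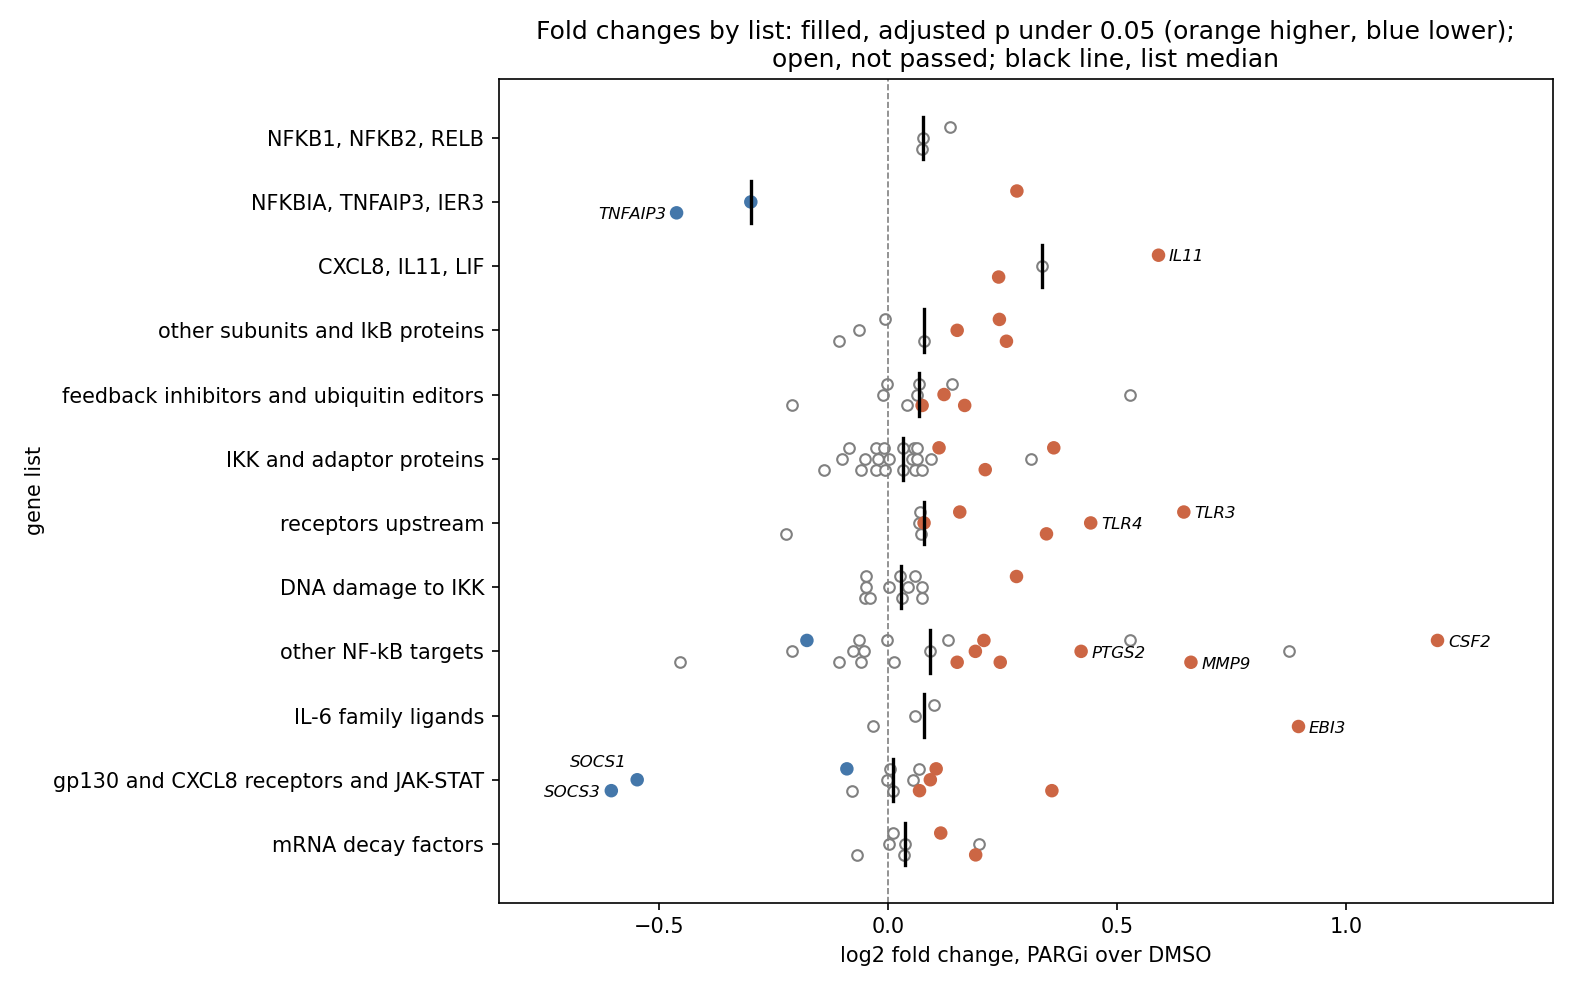
Log2 fold change of PARGi over DMSO (x axis) for each tested gene of the 10 described here and of 9 pathway lists (y axis). Filled points passed an adjusted p of 0.05 (orange higher, blue lower), open points did not, and black lines are list medians. CSF2 is farthest to the right at 1.20, and SOCS3 farthest to the left at -0.60.

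Of the 7 other subunit and IkB genes, 3 passed, all higher, or 42.9% against 24.3% of all tested genes. NFKBIZ, an atypical nuclear IkB protein needed for some secondary targets, rose from 20.1 ± 1.11 to 24.0 ± 0.556 CPM (log2 fold change 0.26, edgeR adjusted p = 0.000114). NFKBID, a further nuclear IkB protein, had a log2 fold change of 0.24 and NFKBIE, which encodes IkB epsilon, one of 0.15. NFKBIA was lower while these 3 other genes of its protein family were higher. NFKBIB (0.079, edgeR adjusted p = 0.262) and BCL3 (-0.064, edgeR adjusted p = 0.530), of the same family, did not pass. NFKBIE lost its call without DMSO replicate 3, PARGi replicate 1 or PARGi replicate 2 (log2 fold changes 0.13, 0.13 and 0.14). Among 11 other feedback inhibitors and ubiquitin editors, 3 were higher, or 27.3%, near the 24.3% called among all tested genes. They were OTULIN (log2 fold change 0.17), CYLD (0.12) and TAX1BP1 (0.074), a partner of A20. OTULIN and CYLD are deubiquitinases that trim the ubiquitin chains that activate IKK. CYLD lost its call without PARGi replicate 3 (edgeR adjusted p = 0.0597), and TAX1BP1 lost its call in 6 of 13 other settings, at log2 fold changes from 0.049 to 0.082.

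Upstream of the dimers, 3 of 24 IKK and adaptor genes passed, all higher, which is 12.5% against 24.3% of all tested genes. MAP3K14 encodes NIK, the kinase that starts the non-canonical pathway. It rose from 33.9, 37.3 and 37.1 CPM in DMSO to 46.7, 47.2 and 45.5 CPM in PARGi (log2 fold change 0.36, SE 0.037, edgeR adjusted p = 8.60e-08). TRAF3 (0.21) and BIRC2 (0.11), which encode proteins that mark NIK for degradation, were higher as well. Genes of the IKK complex itself, CHUK, IKBKB and IKBKG, did not pass, at log2 fold changes of 0.063, 0.033 and -0.050. Of 9 tested receptor genes 5 were higher, or 55.6%. TLR4, the receptor for bacterial lipopolysaccharide, rose from 38.1 ± 0.396 to 51.7 ± 1.34 CPM (log2 fold change 0.44, edgeR adjusted p = 3.24e-10), and IL1RAP, the second chain of the interleukin-1 receptor, from 51.4 ± 1.05 to 65.4 ± 2.06 CPM (0.35). TLR3 (0.65), the TNF receptor gene TNFRSF1A (0.16) and CD40 (0.078) were the other 3. CD40 lost its call in 9 of 13 other settings and TLR3 in 5, TLR3 falling to 0.40 without DMSO replicate 2. Over the settings, between 3 and 6 receptor genes passed as higher. The 6 came without DMSO replicate 3, where a receptor gene not called in the main fit also passed.

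The list for the route from DNA damage to IKK had 12 tested genes, of which 1 passed, or 8.33% against 24.3% of all tested genes. This was PIDD1, a p53 target whose protein binds RIPK1 and NEMO in the nucleus, with 28.0, 26.7 and 28.3 CPM in DMSO and 32.3, 34.8 and 33.6 CPM in PARGi (log2 fold change 0.28, edgeR adjusted p = 8.22e-06). ATM, at a log2 fold change of 0.030, and PARP1, at 0.025, did not pass.

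Of 33 other textbook targets of NF-kB, 21 were tested. A log2 fold change above 0 was found for 12 of the 21, and for 9809 of all 20409 tested genes. Of the 21, 7 were higher and 1 was lower, or 38.1% against 24.3% of all tested genes. SOD2 could not be matched to an identifier and is not analysed here. The largest change was that of CSF2, which encodes the cytokine GM-CSF. It went from 2.25, 2.43 and 2.50 CPM in DMSO to 5.29, 5.30 and 5.91 CPM in PARGi (log2 fold change 1.20, SE 0.092, edgeR adjusted p = 8.34e-10). The groups were far apart. The survival gene BCL2L1 rose from 132 ± 1.73 to 157 ± 1.41 CPM (0.24). MMP9 (0.66), PTGS2 (0.42), TNFAIP2 (0.21), IRF1 (0.19) and NFKBIE (0.15) were also higher. NFKBIE is the same gene that was counted among the IkB genes above. The groups of PTGS2 overlapped, and its call was lost in 6 of 13 other settings, with 0.28 without DMSO replicate 3 and 0.30 without PARGi replicate 3. IRF1 lost its call without PARGi replicate 3 (edgeR adjusted p = 0.0683). GADD45B, a stress gene, was the lower one, from 58.8 ± 1.42 to 52.1 ± 3.66 CPM (-0.18). Several inflammatory genes were nearly or wholly silent: CXCL1 and CXCL2 had 0 counts in all 6 libraries, where the limit of 3 counts that a count of 0 allows, for counting error only, is 0.0149 CPM over the DMSO and 0.0139 CPM over the PARGi libraries. TNF had 5 and 6 counts and IL1B 0 and 3 in the DMSO and PARGi libraries. CCL2, at 2.26 CPM in both groups, did not pass (edgeR adjusted p = 0.963). Also among the 13 targets that did not pass, ICAM1 (-0.45), BIRC3 (-0.21) and PLAU (-0.077) were below 0. CXCL3 (0.87), TRAF1 (0.53) and CSF1 (0.13), which did not pass either, were above it. ICAM1, CXCL3 and TRAF1 averaged 0.487 CPM or less.

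The signalling chain that IL11, LIF and IL6 share was compared as well. IL6ST, the gene of gp130, averaged 131 ± 2.10 CPM without and 132 ± 1.46 CPM with the inhibitor, short of the threshold (edgeR adjusted p = 0.945). The receptor genes LIFR (log2 fold change 0.054) and IL11RA (0.068) did not pass, while OSMR (0.10) and IL6R (0.36) were higher. IL6R passed narrowly (edgeR adjusted p = 0.0493) and lost its call in 9 of 13 other settings, and OSMR lost its call without PARGi replicate 2 (0.086). SOCS3, which encodes the inhibitor that gp130 signalling induces through STAT3, fell from 57.2, 54.4 and 57.9 CPM in DMSO to 39.2, 36.6 and 35.9 CPM in PARGi (log2 fold change -0.60, SE 0.036, edgeR adjusted p = 1.02e-11). SOCS1, a related inhibitor of JAK kinases, fell from 9.70 ± 0.575 to 6.68 ± 0.730 CPM (-0.55), and STAT3 itself was lower by a small amount (-0.090), a call lost without PARGi replicate 3 (-0.074). In all, 4 of the 13 tested genes of this list were higher and 3 were lower, or 53.8% against 24.3% of all tested genes. Over the settings from 1 to 4 were higher and 2 or 3 lower. The transcripts of the ligands IL11 and LIF thus were higher in the same libraries in which SOCS3 and SOCS1 were lower. Of 4 other tested genes listed for the IL-6 cytokine family, EBI3 alone passed, or 25% against 24.3% of all tested genes. EBI3 was at a low level (0.488 ± 0.119 to 0.891 ± 0.188 CPM, log2 fold change 0.89, edgeR adjusted p = 0.00538). It lost its call without PARGi replicate 3 (edgeR adjusted p = 0.0653). Among 8 genes whose proteins control the decay of cytokine mRNAs, 2 were higher, or 25%, near the 24.3% called among all tested genes. They were ZC3H12A, the gene of the nuclease Regnase-1 (0.19), and ZFP36L1 (0.11).

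**Figure D4:**
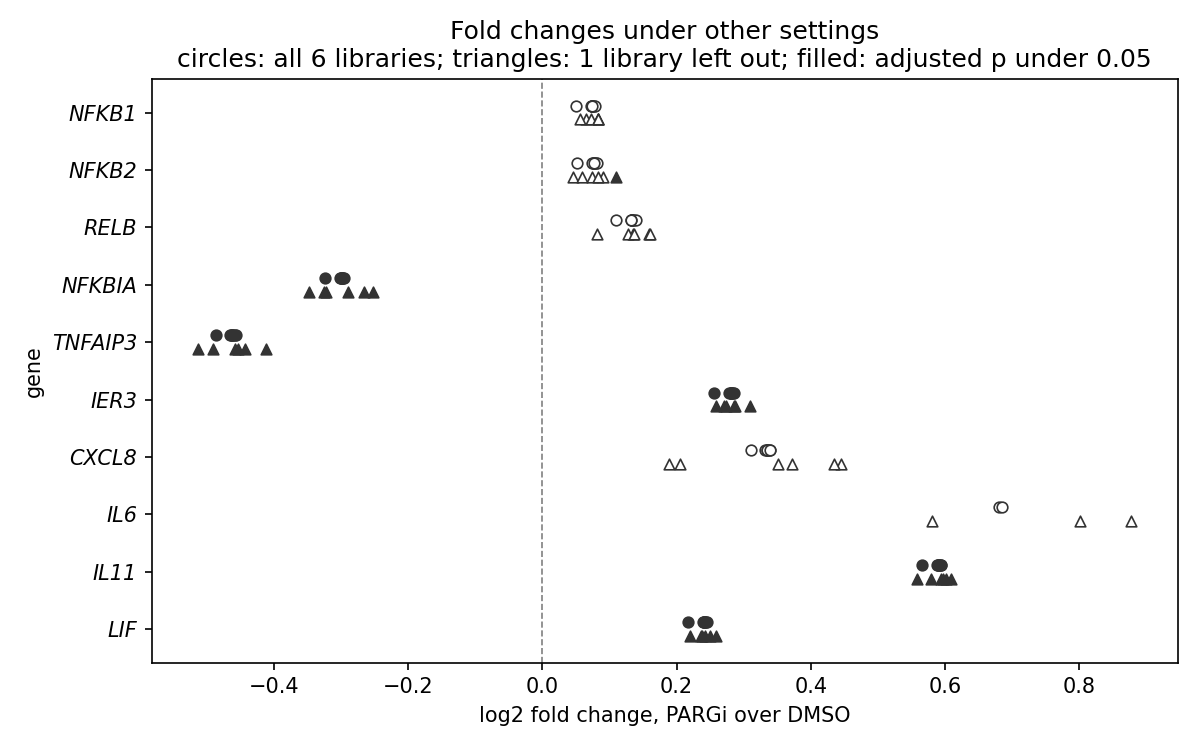
Log2 fold change of PARGi over DMSO (x axis) of each of the 10 genes (y axis) under the main and other settings. Circles use all 6 libraries, triangles leave out 1 library, and filled symbols passed an adjusted p of 0.05. The symbols of IL11, LIF, IER3, NFKBIA and TNFAIP3 are all filled, and NFKB2 is filled in a single setting, without DMSO replicate 3.

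Under 13 other settings, each of the 5 calls among the 10 genes kept its direction and passed. The log2 fold change of IL11 ran from 0.56 to 0.61, that of LIF from 0.22 to 0.26 and that of IER3 from 0.26 to 0.31. NFKBIA ran from -0.35 to -0.25 and TNFAIP3 from -0.51 to -0.41, with adjusted p-values of at most 0.00512 and 0.00864. At an adjusted p of 0.01 all 5 still passed, as did 15.3% of all tested genes.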

How the data were processed

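RNA sequencing libraries of U2OS cells, 3 in DMSO and 3 in PARGi, were made from total RNA with a stranded kit, per the labels' protocols. The authors deposited raw counts per gene, 1 column for each library. Per the submitters' processing notes, cutadapt 1.18 and STAR 2.7.3a were among the tools and the build was hg38. The annotation release is not given in the sources used here. Symbols were found for 60463 of 60708 identifiers, and exonic lengths came from GENCODE 29.

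Here edgeR 4.0.16 (R 4.3.3) tested treatment by quasi-likelihood (two-sided glmQLFTest after glmQLFit), with low counts removed by filterByExpr, TMM scaling and Benjamini-Hochberg adjustment over 20409 genes and a threshold of 0.05. The common biological coefficient of variation was 2.70%. No library duplicated another (chi-square per degree of freedom 2.19 to 5.61 within groups). Alternatives were DESeq2 1.42.0, limma-voom 3.58.1, 2 other scalings, 2 other count filters, a replicate block, each library left out, and a threshold of 0.01. The kB motif is the classical consensus of 10 letters.

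The 10 genes and the lists were chosen with earlier results of these data known. Named were the 10 genes, RELA, REL, and from each list the called genes with the smallest p, at most 2 higher and 2 lower. Other genes were named after their values were seen.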

Additional observations from a re-analysis of the deposited data

How the results depend on the processing

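The number of the 10 genes past the threshold was 5 in each setting but 1, and ran from 5 to 6 with a single library left out, NFKB2 being the addition without DMSO replicate 3. The median log2 fold change, over those of the 10 genes that had one, was 0.13. It was 0.19 both with DESeq2 and without a filter on low counts, where IL6 entered. DESeq2 gave CXCL8 and IL6 a fold change but no adjusted p. With 1 library left out the median ran from 0.090 to 0.20. In these fits IL6 also entered without DMSO replicate 1 (median 0.19), DMSO replicate 2 (0.17) or PARGi replicate 1 (0.20), so the set of genes differed. Over all genes, 4951 passed at 0.05 and 3117 at 0.01, and from 3607 to 4848 with 1 library left out. Upper-quartile scaling moved the share of higher calls from 54.5% to 40.5%. TYK2, named by the rule for its place in the JAK-STAT list (log2 fold change 0.092), did not pass with upper-quartile scaling (0.067) or without DMSO replicate 1 or PARGi replicate 1, and OSMR did not without PARGi replicate 2 (0.086). Of 31 named genes, 26 kept their side of the threshold in every setting that tested them, and 25 of these kept their direction too; the other is RELA, which passed in none and was at 0.011 without DMSO replicate 3 and 0.0039 without PARGi replicate 3.

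The labels give both groups the same replicate numbers but name no shared day or culture, so the numbers were not taken as pairs. Deviations of same-numbered libraries correlated at -0.025 to 0.0016. Genes of low count enter this correlation with equal weight, so it cannot decide whether the libraries were paired. With the replicate block, 5 of the 10 genes, 27 rather than 32 pathway genes and 4553 genes in all passed. At this depth CXCL8 and IL6 rest on too few counts to show changes of the size seen for IL11.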
